A study of Mus musculus with 70 samples.

Results

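The 7 myosin heavy chain genes described here, Myh6, Myh7, Myh7b, Myh9, Myh10, Myh11 and Myh14, were taken by gene symbol from the RNA-seq table of the mouse pituitary gland. The table held 29082 transcripts of 22835 gene symbols, and the transcript with the highest mean level stood for each gene. RNA levels were read in 18 libraries, each from a pool of 3 pituitaries of C57BL/6J male mice, in 4 groups. All groups received 0.05% methimazole and 1% potassium perchlorate for 4 to 5 weeks to block the thyroid gland, and the hyperthyroid groups also received T3 at 0.5 μg per ml in the final 1 week. The groups were hypothyroid wild type (n = 4), hyperthyroid wild type (n = 4), hypothyroid Thrb-KO (n = 5) and hyperthyroid Thrb-KO (n = 5), where Thrb-KO denotes mice lacking TRβ, the thyroid hormone receptor that Thrb encodes. Each T3 difference is thus hyperthyroid against hypothyroid and not against the euthyroid state. TRβ binding came from chromatin affinity purification (ChAP-seq) in untreated ThrbHAB/HAB;Rosa26BirA/BirA mice, whose TRβ carries a biotinylated tag, against Rosa26BirA/BirA controls, in pituitary and in cerebral cortex with 3 libraries per genotype and tissue. The list of chromatin sites whose opening changed with T3 (ATAC-seq) came from nuclei purified from Rosa26Sun1-GFP;Thrb2-Cre pituitaries, which are the cells where the Thrb2 promoter drives Cre, with 4 hypothyroid and 4 hyperthyroid libraries.

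Class II myosins are motor proteins that pull on actin filaments, and each is built of paired heavy chains that carry the motor and of light chains that steady its neck. MYH6, the α chain, and MYH7, the β chain, are the heavy chains of heart muscle, MYH7 also that of slow skeletal fibres. In the ventricle of rodents, T3 is known for raising Myh6 and lowering Myh7. MYH7B is a related chain with little protein in most muscle, MYH11 is the smooth muscle chain, and MYH9, MYH10 and MYH14 are the non-muscle chains IIA, IIB and IIC, which serve cell shape, adhesion, division and secretory granule traffic. Pituitary endocrine cells are secretory epithelial cells, in which non-muscle chains are the class II myosins in general use. Myh6, Myh7 and Myh7b each carry a microRNA gene in an intron, Mir208a, Mir208b and Mir499 respectively.

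Myh6 and Myh7 lie head to tail on the minus strand of chromosome 14. In the NCBIM37 (mm9) build used for the peak lists, Myh6 ran from chr14:55560758-55585764 and Myh7 from chr14:55589525-55613471. The 3760 bases between the 3′ end of Myh7 and the 5′ end of Myh6 held 0 other annotated genes. A pituitary TRβ-HAB peak of 500 bases, chr14:55587101-55587600, lay within this interval, and inside it lay a T3-regulated ATAC peak of 180 bases, chr14:55587220-55587399. The stretch chr14:55587160-55587459, 300 bases on the plus strand, is shown because it lies in the TRβ-HAB peak and spans the whole ATAC peak, with flanks outside the latter. Its capitals mark a match to DR4, the T3 receptor motif of direct repeats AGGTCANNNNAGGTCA, searched on both strands with at most 2 mismatches over the 12 specified bases:
TRβ-HAB and ATAC peak between Myh6 and Myh7: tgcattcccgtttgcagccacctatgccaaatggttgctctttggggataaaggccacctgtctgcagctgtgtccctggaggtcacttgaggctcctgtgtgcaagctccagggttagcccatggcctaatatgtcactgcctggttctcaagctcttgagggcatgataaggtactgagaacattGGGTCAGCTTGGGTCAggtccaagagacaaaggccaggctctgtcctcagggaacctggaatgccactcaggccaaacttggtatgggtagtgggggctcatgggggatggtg

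The microRNAs within these genes are shown because the 3 heart-type chains each host 1 of them and they share most of a seed, the bases 2 to 8 given in capitals. The mature sequences below are from RefSeq (GRCm38.p6):
mmu-miR-208a-3p, from Myh6: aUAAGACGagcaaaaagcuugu
mmu-miR-208b-3p, from Myh7: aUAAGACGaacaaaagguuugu
mmu-miR-499-5p, from Myh7b: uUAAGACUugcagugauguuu
The pair from Myh6 and Myh7 had all 7 seed bases in common and differed at 3 of 22 bases overall. The Myh7b microRNA shared 6 of the 7 seed bases with each of them.

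Depth ran from 21453548 to 55273749 reads per RNA library. Hyperthyroid wild-type replicate 3 stood apart, with a TMM scaling factor of 0.849 against 0.982 to 1.04 in the other 17 libraries. The libraries numbered 1 and 2 also stood apart from those numbered 3 to 5 in Lars2, a mitochondrial leucyl-tRNA synthetase gene, at 2571 to 3420 against 53.2 to 95.1 CPM (read counts scaled to 1 common library total). Thrb RNA was 239 to 297 CPM in hypothyroid and 72.4 to 124 CPM in hyperthyroid wild-type libraries, and 228 to 301 CPM over the libraries labelled Thrb-KO. The Thrb row counts the whole transcript, and which part the allele deletes is not given in the sources used here, so it checks nothing about the label.

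Myh6 was close to absent from hypothyroid pituitary RNA and rose after T3 in wild-type mice to a level above that of the non-muscle chain Myh14. In the hypothyroid wild-type libraries it read 0.143, 0.204, 0.276 and 0.326 CPM, which stood on 5 to 12 reads per library. The hyperthyroid wild-type libraries gave 51.2, 73.9, 54.8 and 109 CPM, from 1351 to 4160 reads. All 4 hyperthyroid libraries lay above all 4 hypothyroid ones, with the lowest 157 times the highest. Such a separation held for 5.66% of the genes above 1 CPM in all 18 libraries, a set without Myh6. Mean Myh6 was 72.2 ± 26.4 CPM (SD, n = 4) with T3 against 0.237 ± 0.0805 CPM (SD, n = 4) without, a ratio of 305. In Thrb-KO pituitaries Myh6 stayed at the low level in every library, at 0.342, 0.196, 0.181, 0.197 and 0.16 CPM when hypothyroid. It was 0.0543, 0.306, 0.238, 0.252 and 0.186 CPM in the hyperthyroid Thrb-KO libraries, on 2 to 11 reads. These Thrb-KO groups overlapped, and neither reached the lowest value of T3-treated wild-type mice. A floor of 3 reads, which covers counting error only, corresponded to 0.0543 to 0.14 CPM over the 18 libraries.

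The test for all genes was limma on log2(CPM + 1), with a gene called at a Benjamini-Hochberg adjusted p below 0.05 and a difference of at least 1.5-fold. This scale understates the change of a gene as low as Myh6 was without T3. Genes above 1 CPM in all 18 libraries were tested, 13145 in number. Myh6 failed that filter and was tested among the 14472 genes above 1 CPM in at least 4 libraries, a condition it met only through the group where it was high. The T3 difference of Myh6 in wild-type mice was 5.82 (SE 0.165) on the log2(CPM + 1) scale, with a 95% interval of 5.48 to 6.17 and a limma adjusted p of 2.3e-14. In this looser set 4.28% of genes were called higher with T3. In Thrb-KO mice the T3 difference was -0.01, with an interval of -0.32 to 0.3 and a limma adjusted p of 1. The T3 response differed between genotypes by -5.83 on the log2(CPM + 1) scale (Thrb-KO minus wild type), with an interval of -6.3 to -5.37 and a limma adjusted p of 6e-12, where 2.19% of genes were called lower. Among hyperthyroid mice the Thrb-KO libraries were lower than wild type by a log2(CPM + 1) difference of -5.86 at a limma adjusted p of 1.2e-14, where 2.82% of genes were called lower. Among hypothyroid mice the genotypes differed by -0.03, with an interval of -0.35 to 0.3. An exact two-sided permutation test of the wild-type T3 difference gave p = 0.0286, the smallest that 4 against 4 libraries allow. That test does not use the filter. Because the filter favoured a gene high in 1 group, the limma p-values of Myh6 were also computed with no filter on low values, where the T3 difference in wild-type mice had an adjusted p of 3.8e-13 and the genotype difference in the response one of 5.7e-11. The T3 difference was 5.93 without hyperthyroid replicate 3, 5.74 within replicates 1 and 2 and 5.91 within replicates 3 to 5.

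**Figure D1:**
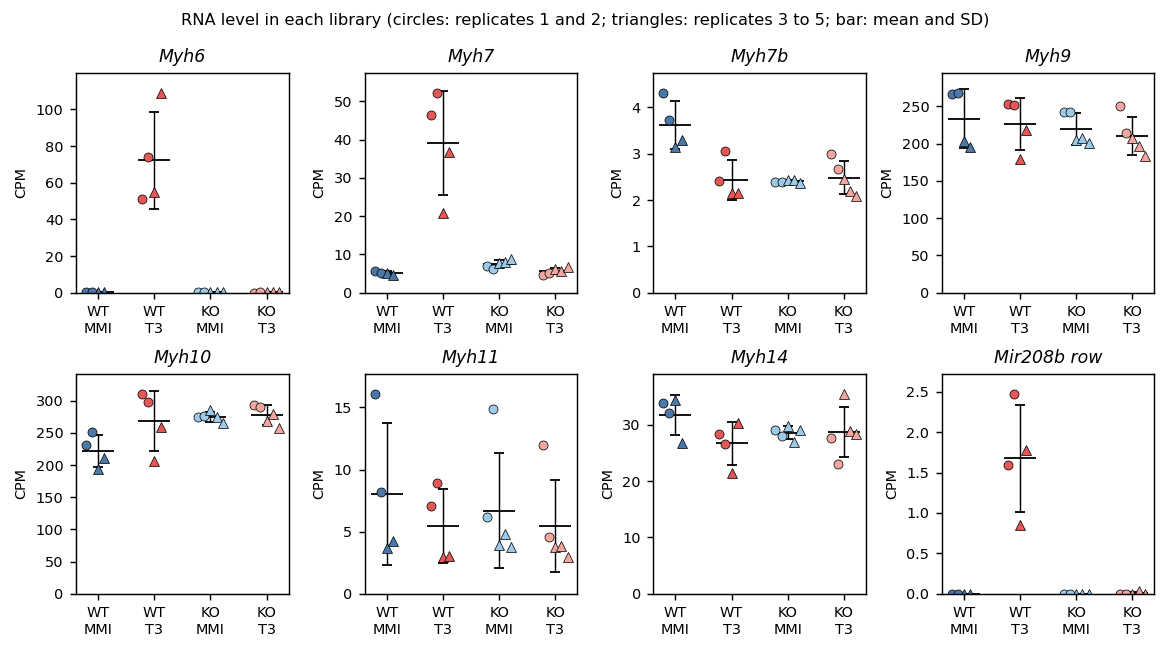
RNA level in CPM (vertical axes, linear, each from 0) of the 7 heavy chain genes and of the Mir208b row in the 4 groups, with 1 symbol per library and bars for mean and SD (n = 4 or 5). Myh6, Myh7 and Mir208b stand high in hyperthyroid wild-type libraries, where Myh6 lies between 51.2 and 109 CPM and Myh7 between 20.9 and 52.1 CPM.

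Myh7 was present without T3 and rose with T3 in wild-type mice. The hypothyroid wild-type libraries read 5.57, 5.19, 5.21 and 4.57 CPM, and the hyperthyroid ones 46.4, 52.1, 20.9 and 36.9 CPM. The groups did not overlap, and replicate 3 of the hyperthyroid group was the lowest of its 4 libraries. The mean went from 5.13 ± 0.414 to 39.1 ± 13.7 CPM (SD, n = 4 each), a ratio of 7.61. The limma difference was 2.63 (SE 0.198, interval 2.22 to 3.05) on the log2(CPM + 1) scale at an adjusted p of 1.8e-08, and 3.87% of the genes above 1 CPM in all libraries were called higher. All libraries of the hyperthyroid group were above all of the hypothyroid group for 5.66% of those genes. The Myh7 difference was 2.9 without hyperthyroid replicate 3, 2.98 within replicates 1 and 2 and 2.29 within replicates 3 to 5, all called by limma. The T3 receptor genes themselves were lower with T3 in wild-type mice, Thrb by a called difference of -1.32 (limma adjusted p 1.3e-06) and Thra, which encodes TRα, by a difference of -0.44 (adjusted p 0.003) that was under 1.5-fold and not called.

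Without TRβ the Myh7 values ran the other way, short of a call. The hypothyroid Thrb-KO libraries gave 6.94, 6.09, 7.69, 8.05 and 8.92 CPM. The hyperthyroid Thrb-KO libraries gave 4.7, 5.15, 6.08, 5.64 and 6.85 CPM. These groups overlapped, although 4 of the 5 hyperthyroid libraries lay below all 5 hypothyroid ones. The difference was -0.35 (interval -0.72 to 0.02) with a limma adjusted p of 0.68, where 0.601% of genes were called lower and 0.411% higher with T3 in Thrb-KO mice. An exact two-sided permutation test of this single gene gave p = 0.0159. The T3 response of Myh7 differed between genotypes by -2.99 (SE 0.265, interval -3.54 to -2.43) at a limma adjusted p of 1.1e-06, a direction in which 1.78% of genes were called.

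Between genotypes at the same hormone state, Myh7 was lower in the Thrb-KO libraries among hyperthyroid mice by a log2(CPM + 1) difference of -2.52 at a limma adjusted p of 4.8e-08. The share of genes called lower there was 2.32%, and all Thrb-KO libraries lay below all wild-type libraries for 3.69%. In hypothyroid mice all 5 Thrb-KO libraries lay above all 4 wild-type ones, with mean values of 7.54 ± 1.08 (n = 5) and 5.13 ± 0.414 CPM (n = 4). That separation held for 7.6% of genes. The difference of 0.47 (interval 0.08 to 0.86) had a limma adjusted p of 0.17 and was not called, while 1.01% of genes were called higher. This comparison and the T3 comparison in wild-type mice share the hypothyroid wild-type libraries.

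Myh6 and Myh7 are close relatives, and their reads could not be fully separated. Of the 50-base windows of the Myh6 transcript, 22.8% were identical to a stretch of Myh7, and 22.2% of the Myh7 windows were identical to Myh6. With up to 2 mismatches the shares were 51.5% and 50.2%. For the other chains at most 1.12% of windows were identical to another member. In the 14 libraries outside the hyperthyroid wild-type group Myh6 read 1.16% to 7.14% of Myh7. As a bound, chosen after the values were seen, every Myh6 read from a shared window was assumed to have been counted in Myh7 and was taken out of it. Myh7 then read 31.3, 30.3, 4.73 and 4.78 CPM in the hyperthyroid wild-type libraries, against 4.47 to 5.52 CPM in hypothyroid wild type. Under that bound replicates 1 and 2 stood above the hypothyroid libraries and replicates 3 and 4 within their range. The Myh7 difference fell to 1.16 with a limma adjusted p of 0.067, and the genotype difference in the T3 response to -1.52 with an adjusted p of 0.17, so neither was called. The converse bound, with Myh7 reads taken out of Myh6, left 38, 59, 48.8 and 98.4 CPM of Myh6 in the hyperthyroid wild-type libraries. In the 14 libraries outside that group it exceeded all Myh6 reads, so Myh6 was set to 0 there. The full converse bound therefore cannot hold in those 14 libraries. Its difference of 5.87 (limma adjusted p 7.3e-14) compares with a hypothyroid group without spread, so that p-value carries no weight.

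**Figure D2:**
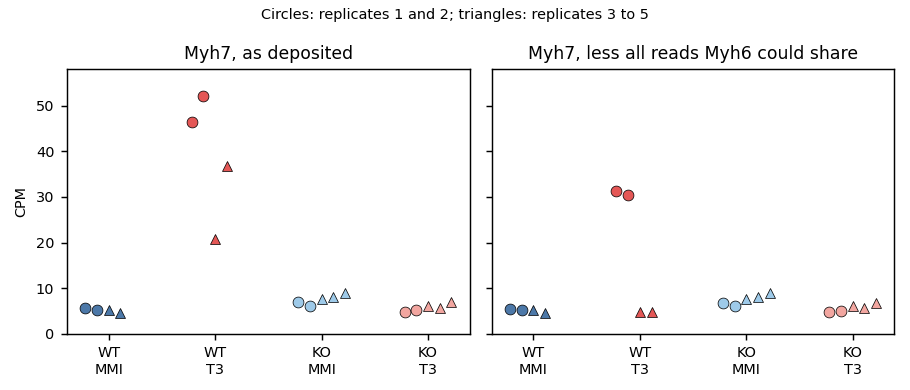
Myh7 level in CPM (vertical axes, linear, from 0) in each library of the 4 groups, as deposited and after removal of the reads that windows shared with Myh6 could have added. As deposited the 4 hyperthyroid wild-type libraries lie between 20.9 and 52.1 CPM, and under the bound they lie between 4.73 and 31.3 CPM.

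The microRNA rows of the table counted reads over short hairpins in introns of the same genes, apart from these windows. Mir208b, which sits in an intron of Myh7 at chr14:55594537-55594613 (mm9), was at 0 in all 9 hypothyroid libraries, where 3 reads would have been 0.0543 to 0.109 CPM. It read 1.6, 2.47, 0.852 and 1.78 CPM in the hyperthyroid wild-type libraries, from 71, 90, 21 and 68 reads. In hyperthyroid Thrb-KO mice it was 0 in 4 libraries and 0.0315 CPM, 1 read, in replicate 4. The wild-type groups did not overlap, and the exact two-sided permutation p was 0.0286, the smallest possible with 4 against 4. Of the genes above 1 CPM in all libraries, a set without Mir208b, 5.66% were separated in that direction. Mir208a, in an intron of Myh6, had 1 read in a hyperthyroid wild-type library and 0 elsewhere, although Myh6 had 1351 to 4160 reads per library in that group. Mir499, in an intron of Myh7b, had 0 in all 18. The rows are thus no even readout of their host genes. These are poly(A)-selected long RNA libraries, so these rows hold reads over the hairpin region and do not measure the mature microRNAs shown above.

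Within the cardiac pair, Myh6 supplied 4.49 ± 1.78% (SD, n = 4) of the summed CPM in hypothyroid wild-type mice and 64.6 ± 10.7% (SD, n = 4) in hyperthyroid wild-type mice. The latter ranged from 52.5% to 74.7%, so Myh6 was the larger member in each of the 4 libraries as deposited. With shared-window reads taken out of Myh6, a bound that set Myh6 to 0 in the other groups, replicate 1 had 38 CPM of Myh6 against 46.4 CPM of Myh7. The Myh6 share as deposited was 2.85 ± 1.14% in hypothyroid and 3.49 ± 1.69% in hyperthyroid Thrb-KO mice (SD, n = 5 each). The study also chose Myh6 and Myh7 for RT-PCR, and whether that choice drew on these libraries is not given in the sources used here.

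Myh7b, the third chain of the heart-type branch, was low in all groups and was not called by limma in any comparison. It read 4.31, 3.73, 3.15 and 3.3 CPM in hypothyroid wild-type libraries and 2.41, 3.05, 2.15 and 2.15 CPM in hyperthyroid ones. All hyperthyroid libraries lay below the hypothyroid ones, as they did for 11.7% of genes. The difference of -0.43 (interval -0.65 to -0.21) had a limma adjusted p of 0.0061 but fell short of 1.5-fold and was not called, in a direction in which 5.59% of genes were called. In hypothyroid Thrb-KO mice Myh7b was 2.37 to 2.44 CPM, below every hypothyroid wild-type library, a separation that 6.7% of genes showed. That difference was -0.43 with a limma adjusted p of 0.01, again short of 1.5-fold, where 2.01% of genes were called lower. On recovered reads both edgeR (-0.62, adjusted p 0.0038) and DESeq2 (-0.61, adjusted p 0.00049) called Myh7b lower there. The hyperthyroid Thrb-KO libraries overlapped these at 2.1 to 2.99 CPM. The genotype difference in the T3 response was 0.46 with a limma adjusted p of 0.071.

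The non-muscle chains were abundant in every library and none was called in any comparison. With T3, 3.87% of all genes tested were called higher and 5.59% lower in wild-type mice, and 0.411% and 0.601% in Thrb-KO mice. The absence of a call therefore does not set these chains apart from most genes. Myh9, the non-muscle IIA chain, read 267, 268, 204 and 196 CPM in hypothyroid wild-type and 253, 252, 180 and 218 CPM in hyperthyroid wild-type libraries. In both groups replicates 1 and 2 were higher than replicates 3 and 4, and the groups overlapped. The T3 difference was -0.05, with an interval of -0.32 to 0.23 and a limma adjusted p of 0.89, and its sign turned to 0.02 when CPM were rescaled by TMM factors. In Thrb-KO mice Myh9 was 200 to 243 CPM without and 183 to 250 CPM with T3, a difference of -0.07 (interval -0.32 to 0.18).

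Myh10, the non-muscle IIB chain, read 231, 252, 194 and 211 CPM in hypothyroid wild-type libraries and 310, 298, 206 and 260 CPM in hyperthyroid ones. Only hyperthyroid replicate 3 fell within the hypothyroid range, and Myh10 was higher with T3 in 4 of 4 same-numbered pairs, a pairing the labels do not state. The difference was 0.27 (interval 0.04 to 0.49) with a limma adjusted p of 0.11, and of 0.031 with the replicate number as a block. Without replicate 3 of the hyperthyroid group it was 0.39 with an adjusted p of 0.0029. All of these were under 1.5-fold. In hypothyroid Thrb-KO mice Myh10 was 274, 276, 286, 274 and 265 CPM, all above the hypothyroid wild-type libraries, as 7.6% of genes were, and the difference of 0.32 (interval 0.1 to 0.53) had a limma adjusted p of 0.08. With T3 the Thrb-KO libraries read 258 to 294 CPM, a T3 difference of 0.01 (interval -0.19 to 0.22).

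Myh14, the non-muscle IIC chain, read 33.8, 32, 34.4 and 26.7 CPM in hypothyroid wild-type libraries and 28.4, 26.7, 21.4 and 30.3 CPM in hyperthyroid ones. These groups overlapped, and the difference was -0.25 (interval -0.5 to 0.01) with a limma adjusted p of 0.19. The Thrb-KO libraries lay at 27 to 29.9 CPM without and 23.1 to 35.4 CPM with T3. Set against the cardiac pair, the T3 intervals in wild-type mice were 5.48 to 6.17 for Myh6 and 2.22 to 3.05 for Myh7, whereas those of Myh9, Myh10 and Myh14 together spanned -0.5 to 0.49 on the same log2(CPM + 1) scale. The median over all genes tested was -0.04.

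Myh11, the smooth muscle chain that marks vessel walls, was highest in replicates 1 and 2 of each group. It read 16.1, 8.22, 3.67 and 4.24 CPM in hypothyroid wild-type, and 7.06, 8.88, 2.92 and 3.06 CPM in hyperthyroid wild-type libraries. The hypothyroid Thrb-KO values were 6.19, 14.9, 3.89, 4.8 and 3.74 CPM. The hyperthyroid Thrb-KO values were 12, 4.57, 3.79, 3.88 and 2.94 CPM. Every T3 and genotype interval included 0 (T3 in wild type -0.4, interval -1.37 to 0.57, limma adjusted p 0.66). Myh11 stood at 4.57 to 16.1 CPM in the 8 libraries numbered 1 and 2 and at 2.92 to 4.8 CPM in the 10 numbered 3 to 5. These are the sets that differed in Lars2. The study used more than 1 library kit without tying a kit to a library in the labels, and the part of these sets in the Myh11 values was not tested. None of the 8 tested of 12 smooth muscle and pericyte markers was called with T3 in wild-type mice. Of all genes tested 3.87% were called higher and 5.59% lower there. The summed level of the markers was 121 to 290 CPM without and 118 to 280 CPM with T3.

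**Figure D3:**
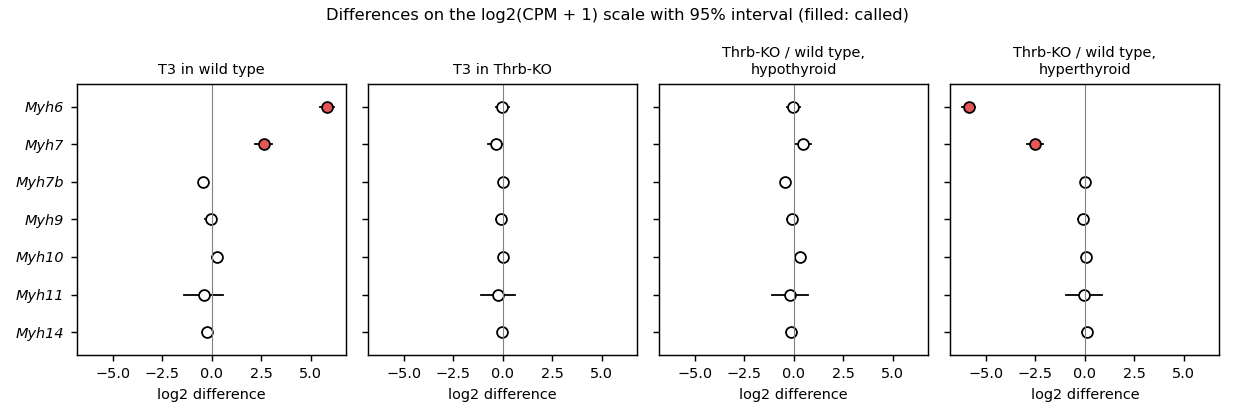
Difference on the log2(CPM + 1) scale (horizontal axes) for each of the 7 genes, for T3 in each genotype and for genotype at each hormone state. Points give the limma estimate, bars the 95% interval, and filled points mark called genes. Myh6 was tested in the looser set of genes, which it entered through its high group. Filled points occur at Myh6 and Myh7 only, at 5.82 and 2.63 for T3 in wild-type mice. The intervals of the non-muscle chains stay between -0.5 and 0.53 in the comparisons shown.

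Levels between genes were compared per kilobase of transcript. In hypothyroid wild-type mice the levels were 31.4 ± 5.28 CPM per kb for Myh9 and 28.5 ± 3.26 for Myh10 (SD, n = 4), which did not differ beyond their spread. Myh14 followed at 4.88 ± 0.539, then Myh11 at 1.21 ± 0.862, Myh7 at 0.824 ± 0.0665 and Myh7b at 0.588 ± 0.0846 CPM per kb, and Myh7 and Myh7b lay within the spread of Myh11. Myh6 was last at 0.039 ± 0.0132 CPM per kb. In hyperthyroid wild-type mice Myh10 (34.5 ± 6) and Myh9 (30.4 ± 4.67) were again within their spread of each other. Myh6 was now the third at 11.9 ± 4.34 CPM per kb, ahead of Myh7 at 6.27 ± 2.19, Myh14 at 4.11 ± 0.589, Myh11 at 0.826 ± 0.448 and Myh7b at 0.396 ± 0.0691. The mean ± SD ranges of Myh6 and Myh7 overlapped, as did those of Myh7 and Myh14. By share within a library, as deposited, Myh6 (8.82% to 19.5%) lay above Myh7 (4.99% to 8.48%). The shares of Myh7 and Myh14 (4.16% to 5.07%) overlapped. Both Thrb-KO groups had Myh10 and Myh9 at the top and Myh6 last, with Myh6 at 0.0354 ± 0.0119 and 0.0341 ± 0.0157 CPM per kb (SD, n = 5 each).

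As a share of the summed CPM per kb of the 7 genes, the cardiac pair held 1.29 ± 0.147% in hypothyroid wild-type libraries and 20.4 ± 4.03% in hyperthyroid ones (SD, n = 4 each). The lowest hyperthyroid library was at 16.6% and the highest hypothyroid one at 1.48%. The non-muscle chains took 96.1 ± 1.02% and 78.2 ± 3.82% in those groups. In Thrb-KO mice the pair held 1.74 ± 0.315% without and 1.36 ± 0.294% with T3 (SD, n = 5 each). These are shares of a sum, so the fall of the non-muscle share goes with the rise of the pair.

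**Figure D4:**
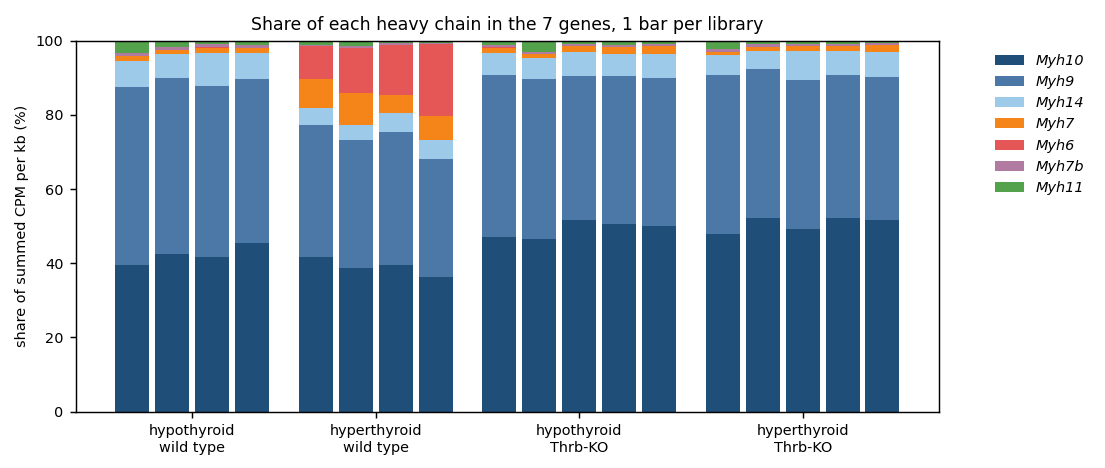
Share in percent (vertical axis, 0 to 100) of each heavy chain in the summed CPM per kb of the 7 genes, with 1 bar per library in the 4 groups. Myh6 and Myh7 together take 16.6% to 25.9% of the hyperthyroid wild-type bars, and Myh9 and Myh10 take most of every bar.

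The remaining class II heavy chains stayed near the floor. Myh1, Myh2, Myh3, Myh4, Myh8, Myh13 and Myh15, which serve skeletal, embryonic and eye muscles, never exceeded 1 CPM. Their highest values in any library were 0.631 CPM for Myh2 and 0.527 for Myh4, with 0.0406 for Myh8 the lowest of the 7. Of 12 markers of striated muscle identity 10 were at or below 1 CPM in every library, among them Ckm, muscle creatine kinase, at a mean of 0.736 CPM without and 0.615 with T3 in wild-type mice. The summed level of this list was 10.4 to 15.1 CPM in hypothyroid and 6.96 to 8.08 CPM in hyperthyroid wild-type libraries, and Casq2 and Des were its 2 members above 1 CPM. All 13 anterior pituitary hormone and lineage markers exceeded 1 CPM in all 18 libraries. In bulk tissue a change in the number of cells that express a gene and a change in RNA per cell cannot be told apart.

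Among 12 myosin light chain genes 5 passed the filter in all libraries and 0 were called with T3 in wild-type mice. Their median log2 difference was 0.08, and 3.87% of all genes were called higher and 5.59% lower. The most abundant, Myl12b and Myl12a, which encode regulatory light chains of non-muscle myosin, were 38.4 ± 3.99 and 23.7 ± 3.3 CPM without T3 and 36.6 ± 11.1 and 29.5 ± 15.3 CPM with T3 (SD, n = 4). Hyperthyroid replicate 3 gave 52.4 CPM of Myl12a, against 20.3 CPM in the lowest library of its group. Myl4, the atrial essential light chain, failed that filter and was read in the looser set only. It fell from 1.26 ± 0.267 to 0.494 ± 0.15 CPM, by a log2(CPM + 1) difference of -0.6 with a limma adjusted p of 0.0022. This met both limits of a call, outside the count of 0 above. Myl4 entered the looser set through libraries outside the hyperthyroid wild-type group, so the filter favoured a gene lower in that group. Of 20 regulators of non-muscle myosin, such as kinases and phosphatase subunits that act on the light chains, 17 were tested and 1 was called lower, beside 5.59% of all genes called lower. This was Rock2, a protein kinase, which fell from 145 ± 23.9 to 97.7 ± 32.2 CPM (difference -0.61, limma adjusted p 0.026). The most abundant of that list, Cdc42bpa and Cdc42bpb, were 271 ± 33.4 and 147 ± 23 CPM without T3 and 209 ± 49.2 and 187 ± 42.6 CPM with T3, and neither was called. Of 5 myosin chaperones 3 were tested and 0 called. Hsp90ab1 among them was 980 ± 151 CPM without and 776 ± 102 CPM with T3, and Hsp90aa1 was 120 ± 23.2 and 106 ± 18.8 CPM.

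Of 20 cardiac sarcomere and T3-responsive heart genes 8 were tested, with 1 called higher and 1 lower with T3 in wild-type mice and a median of -0.13, beside 3.87% of all genes called higher and 5.59% lower. Ryr2, the calcium release channel of heart and brain, rose from 24.7 ± 8.53 to 74.6 ± 34.5 CPM (SD, n = 4 each; difference 1.49, limma adjusted p 0.00095). In Thrb-KO mice Ryr2 was 18.8 ± 3.2 and 27.8 ± 6.72 CPM, a difference of 0.53 with an adjusted p of 0.67, and the genotype difference in its response was -0.97 with an adjusted p of 0.21. Actn2, the sarcomeric α-actinin, fell from 15.6 ± 2.08 to 9.74 ± 1.95 CPM (difference -0.64, limma adjusted p 0.00084). Atp2a2, the calcium pump SERCA2 that T3 is known to raise in heart, was 279 ± 27.5 and 278 ± 69.1 CPM. Ttn, the giant sarcomere protein titin, was 77.2 ± 43.4 and 50.6 ± 35.2 CPM. Casq2, the cardiac calsequestrin and a marker of striated muscle, fell in wild-type mice from 6.75 ± 1.37 to 3.54 ± 0.545 CPM (difference -0.76, limma adjusted p 0.00061). It rose in Thrb-KO mice from 4.54 ± 0.617 to 8.73 ± 1.42 CPM (difference 0.81, limma adjusted p 0.00093), and the genotype difference in the response was 1.57 with an adjusted p of 4.4e-05.

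The genes whose log2 levels followed Myh6 most closely over the 18 libraries were Tmem45b (Pearson r = 0.995), Sspo (0.993), Cpne9 (0.992), Gm11468 (0.989) and Upk3a (0.988), out of 14472 genes. Sspo, for SCO-spondin, had mean levels of 2.97 CPM without and 104 CPM with T3 in wild-type mice, against 2.84 and 2.87 CPM in Thrb-KO mice. For Myh7 the closest were Jak2 (0.975), Bmp7 (0.971), Gm11468 (0.968), Slc25a42 (0.967) and Cdc42ep2 (0.964). Bmp7, a secreted growth factor, had mean levels of 3.65 CPM without and 44.8 CPM with T3 in wild-type mice. Myh6 and Myh7 as deposited had a correlation of 0.953 with each other. Of the Myh6 windows 22.8% were identical in Myh7, and the part of such reads in this value was not tested. These coefficients describe libraries that share 1 strongly separated group, so a gene high in that group alone comes near 1. Tmem45b, Cpne9 and Gm11468 had group means of at most 0.248 CPM outside hyperthyroid wild-type mice. Like Myh6, they could pass the limit of 1 CPM in at least 4 libraries only through that group.

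Peaks of TRβ binding within 20 kb of a gene were found for 4 of the 7 chains in pituitary, where 41.3% of the genes above 1 CPM had such a peak. The peak between Myh6 and Myh7 had 41 reads in the tagged and 9 in the control libraries, which the authors' peak caller gave as a 3.8-fold enrichment with an FDR of 1.6e-12. It was a weak peak by enrichment, since 96.8% of the 8051 pituitary peaks had a larger fold, and in the middle of the list by FDR, with 52.2% of peaks lower. By tagged reads it stood above the median of the list, at 41 against 18. Its middle lay 1.59 kb upstream of the 5′ end of Myh6 and its edge 1.92 kb beyond the 3′ end of Myh7. The T3-regulated ATAC peak inside it centred 1.54 kb upstream of Myh6. The ATAC list gave no direction of change, so whether T3 opened or closed this site was not analysed here. It was the sole ATAC peak within 20 kb of any member, counted for 2 of 7 chains because it neighbours both, while 7.78% of genes had an ATAC peak within 20 kb. Of all 1776 T3-regulated ATAC peaks 49% overlapped a pituitary TRβ-HAB peak.

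**Figure D5:**
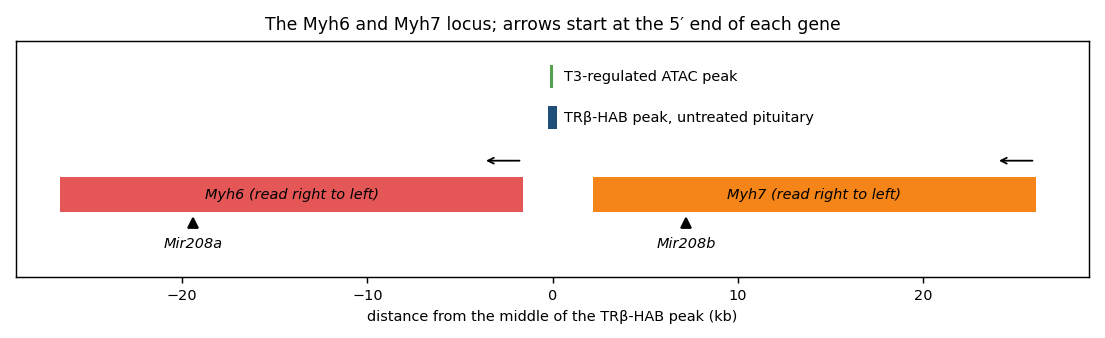
Map of the Myh6 and Myh7 locus to scale, with distance in kb from the middle of the TRβ-HAB peak on the horizontal axis and arrows that start at the 5′ end of each gene. The TRβ-HAB peak and the ATAC peak stand in the interval of 3760 bases between the genes, with Mir208a and Mir208b inside the genes.

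Among the non-muscle chains Myh10 had 3 pituitary peaks within 20 kb. The strongest, in an intron at chr11:68531401-68531750, had 52 tagged and 4 control reads and a fold of 10.9, near the median of 10 over all pituitary peaks. A further intronic peak at chr11:68557701-68557900 had 12 and 0 reads, and the remaining peak, with 26 and 1 reads, lay 5.12 kb downstream within Ndel1. Myh14 had 1 peak 15.97 kb downstream with 33 and 4 reads. Myh7b, Myh9 and Myh11 had none within 20 kb.

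In cerebral cortex 3 of the 7 chains had a TRβ peak within 20 kb, where 34.8% of genes did, and none lay near Myh6 or Myh7. Myh7b had 5, of which the peaks at chr2:155455051-155455250 (9 tagged and 0 control reads) and chr2:155456001-155456400 (12 and 0 reads) overlapped coding exons of Myh7b. Myh10 had 1 cortex peak 0.06 kb upstream of its 5′ end with 10 and 1 reads. Myh14 had 1 with 23 and 4 reads. Peaks of the 2 tissues were called separately, so the presence of a peak in 1 list is no test of a difference in binding.

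DR4 matches with at most 2 mismatches occurred in 2 of the 5 distinct pituitary peaks near members, in the 1 ATAC peak and in 0 of 7 cortex peaks. Over the whole lists they occurred in 20.9% of pituitary, 30.9% of ATAC and 9.3% of cortex peaks, and in 25.7% of pituitary peaks of 500 bases. The matches in pituitary peaks are shown with their 6-base repeats in capitals and the 4-base spacer in lower case, as read on the strand given:
chr14:55587347-55587362, plus strand, between Myh6 and Myh7 and inside the ATAC peak: GGGTCAgcttGGGTCA
chr14:55587539-55587554, minus strand, same TRβ peak outside the ATAC peak: AGGGCAaaccAGGCCA
chr11:68557760-68557775, plus strand, intron of Myh10: AGGTTAtgtgGGGTCA
Each had 2 mismatches, and with at most 1 mismatch allowed no member peak held a match.

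Promoter windows from 250 bases before to 50 after the start were available from RefSeq (GRCm38.p6) for 6 of the genes, and a DR4 match with at most 2 mismatches stood in those of Myh6 and Myh7b, against 3.02% of all 32851 windows. Both matches were on the strand opposite to the gene, so the capitals below show the motif as its reverse complement. They are shown because Myh6 and Myh7b differed in their T3 values while each held a match:
Myh6, chr14:54966688-54966751 (GRCm38.p6, minus strand), match at -120 to -105 from the start: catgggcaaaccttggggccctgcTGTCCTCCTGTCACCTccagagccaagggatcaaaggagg
Myh7b, chr2:155611163-155611226 (GRCm38.p6, plus strand), match at -56 to -41: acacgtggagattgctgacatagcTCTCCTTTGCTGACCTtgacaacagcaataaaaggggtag
The nearest TRβ-HAB peak edge stood 1.34 kb upstream of the mm9 start of Myh6. Myh7b had no pituitary TRβ-HAB or ATAC peak within 20 kb, and its nearest cortex peak centred 18.2 kb from its mm9 start. Neither promoter match thus lay in a listed peak, and a match is a description of the letters, not of binding.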

How the data were processed

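RNA was poly(A)-selected from pooled pituitaries and sequenced as single-end 50-base reads. The authors mapped them with BBMap to RefSeq mm9 transcripts, while the submitters' processing notes also name STAR and edgeR for the series, and deposited CPM per transcript without strand. CPM steps gave whole reads (tolerance 0.05) for 100% of values, which served as counts for edgeR and DESeq2 alternatives. The ChAP peak lists were deposited by the authors with read counts per peak from merged libraries, fold over control, and FDR (a p-value adjusted by SICER 1.1), so peaks have no replicates. The ATAC list, made by the authors with Bowtie2, MACS2 and edgeR, holds positions and an adjusted p-value of their own comparison, which served only to set a stricter threshold as an alternative. ChAP-seq under treatment and histone ChIP-seq were not analysed here.

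Computed here: limma 3.58.1 (R 4.3.3; lmFit, eBayes with trend) on log2(CPM + 1), 1 model of 4 groups with all 18 libraries, genes above 1 CPM in all. The gene models for peaks were NCBIM37. Same-numbered libraries deviated together in 25 of 25 pairs (r 0.13 to 0.815), but such pairs also share the library set that differed in Lars2. The 2 cannot be told apart here, and the labels state no pairing. The reported model used none, and the replicate number served as a block in an alternative only. Whether pools within a group came from separate cages or days is not given, so p-values measure the spread between these pools. Named were the 7 chains, Thrb, Thra, the other class II chains, up to 4 called and the 2 most abundant genes of the fixed lists of partners, heart and muscle genes, and the 5 closest correlates. Members and lists were chosen with earlier results of these data known. Alternatives were edgeR 4.0.16, DESeq2 1.42.0, pseudocounts, filters, TMM scaling, replicate blocks, library sets and each library left out. Calls were tested on simulated data. Depth was 21453548 to 55273749 reads (median 34673225), where 3 reads are 0.0543 to 0.14 CPM.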

Additional observations from a re-analysis of the deposited data

Results flagged for a closer look

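Among 30 groups of 4 or 5 libraries examined, 4 held a library whose gap to its neighbour passed Dixon's limit at the 95% level, where chance gives about 1 in 20. Myh6 in hypothyroid Thrb-KO mice was 0.3417 CPM in replicate 1, with the next library at 0.197 CPM. Myh11 was 14.86 CPM in hypothyroid Thrb-KO replicate 2 against 6.19 CPM in the next, and 11.98 CPM in hyperthyroid Thrb-KO replicate 1 against 4.57 CPM. Mir208b was 0.03153 CPM, 1 read, in hyperthyroid Thrb-KO replicate 4 and 0 in the other 4 libraries of its group.

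The T3 response differed between genotypes, by the interaction term in limma, for Myh6 by -5.835 and for Myh7 by -2.987 on the log2(CPM + 1) scale (Thrb-KO minus wild type). All 4 hyperthyroid wild-type libraries were above all 4 hypothyroid ones for both genes. That held for 5.66% of the genes above 1 CPM in all libraries, a set without Myh6. The Myh7 value is the one that reads shared with Myh6 bear on.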

How the results depend on the processing

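Of 798 member differences recomputed under other settings 735 kept direction and call, 3 became called and 60 changed sign. None of the 60 belonged to a difference called as reported, the largest of which was 0.241 in size, and none had an adjusted p below 0.35. The T3 difference in wild-type mice ranged from 5.74 to 8.32 for Myh6 and from 2.29 to 2.98 for Myh7, and from 5.61 to 5.97 and 2.47 to 2.9 with 1 library left out. The genotype difference in the response ranged from -8.33 to -5.83 for Myh6 and from -3.38 to -2.65 for Myh7. With the replicate block the T3 differences were 5.82 and 2.63 (limma adjusted p 7.2e-13 and 5.4e-08), and the block changed no call of a member. A library deviated most like the one of the same number in 20 of 50 comparisons with another group.

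The called additions concern Myh7b, whose hypothyroid genotype difference was -0.62 by edgeR and -0.61 by DESeq2 (adjusted p 0.0038 and 0.00049), giving 1 called member in place of 0, and whose genotype difference in the response was 0.61 (adjusted p 0.048) in replicates 1 and 2 alone. Taking shared reads out of Myh7, an alternative added after seeing the data, moved its T3 difference to 1.16, its response difference to -1.52 and its hyperthyroid genotype difference to -1.04, none called. By construction that bound removes reads from the hyperthyroid wild-type group above all.

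The sign changes, whose cause was not tested, were as follows. With TMM-scaled CPM, edgeR and DESeq2 in turn, T3 in wild type for Myh9 was 0.0184, 0.0113 and 0.0147, T3 in Thrb-KO for Myh14 was 0.0031, 0.0125 and 0.0116, and the hyperthyroid genotype difference was -0.0361, -0.041 and -0.0346 for Myh7b and -0.0163, -0.0206 and -0.0219 for Myh10. For Myh11 the last was 0.0997 with the replicate block and 0.0732 with the library set as a block. In replicates 1 and 2 alone the response difference was 0.0114 for Myh9, the hypothyroid genotype difference 0.111 for Myh6, and the hyperthyroid one -0.0559 for Myh10 and -0.117 for Myh14. In replicates 3 to 5 alone T3 in Thrb-KO was 0.0553 for Myh6, -0.0709 for Myh7b, -0.0352 for Myh10 and 0.0993 for Myh14, the hypothyroid genotype difference 0.0335 for Myh9 and 0.0497 for Myh11, and the hyperthyroid one 0.178 for Myh11.

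With 1 library left out, T3 in wild type for Myh9 ran from -0.126 to 0.0585. T3 in Thrb-KO ran from -0.0403 to 0.037 for Myh6, -0.023 to 0.0682 for Myh7b, -0.0064 to 0.0405 for Myh10, -0.531 to 0.0606 for Myh11 and -0.0853 to 0.0642 for Myh14. The response difference ran from -0.126 to 0.0585 for Myh9 and -0.212 to 0.462 for Myh11. The hypothyroid genotype difference ran from -0.0628 to 0.0088 for Myh6 and -0.499 to 0.174 for Myh11, and the hyperthyroid one from -0.0294 to 0.102 for Myh7b, -0.0549 to 0.141 for Myh10 and -0.327 to 0.205 for Myh11.

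Genes called for T3 in Thrb-KO were 133, and 214 with replicates 1 and 2 alone. Genotype calls were 397 (hypothyroid) and 639 (hyperthyroid), and 635 and 1125 with replicates 3 to 5 alone, and the cause was not tested. Without the fold limit the calls were 2536 for T3 in wild type (1244 with it), 235 for T3 in Thrb-KO, and 901 and 1586 between genotypes. With a 100 kb window 7 chains had a cortex peak and 4 an ATAC peak, and 1 had a cortex peak at an FDR below 1e-10. With at most 1 mismatch 0 pituitary and 0 ATAC peaks near members held a DR4 match, and with at most 3 mismatches 3 cortex peaks did. At this depth Myh6 outside hyperthyroid wild-type mice rests on 2 to 12 reads per library.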
